A study of Triticum aestivum with 24 samples.

Results

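VRN1, FUL2 and FUL3 are MADS-box transcription factor genes that bread wheat carries as triads, with 1 homoeologous copy on each of the A, B and D subgenomes. The 9 copies were taken by their identifiers from a table of 105200 genes measured in wheat leaves. The VRN1 copies are TraesCS5A02G391700 (VRN1-A, chromosome 5A), TraesCS5B02G396600 (VRN1-B, 5B) and TraesCS5D02G401500 (VRN1-D, 5D). The FUL2 copies are TraesCS2A02G261200 (FUL2-A, 2A), TraesCS2B02G281000 (FUL2-B, 2B) and TraesCS2D02G262700 (FUL2-D, 2D). The FUL3 copies are TraesCS2A02G174300 (FUL3-A, 2A), TraesCS2B02G200800 (FUL3-B, 2B) and TraesCS2D02G181400 (FUL3-D, 2D). The names come from the list that defined the set, since the table pairs its identifiers with no names and 0 of the 9 matched the reference gene table.

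All of these genes belong to the APETALA1/FRUITFULL clade of MADS-box genes, whose proteins promote the change of the shoot apex from making leaves to making a spike. VRN1 is the central vernalization gene of winter wheat: prolonged cold raises it, and in leaves it acts against the flowering repressor VRN2, which allows the florigen gene FT1 to be expressed. FUL2 and FUL3 are its closest paralogs, and in wheat they share with VRN1 roles in flowering time, spikelet identity and stem height. Transcripts of the clade remain in leaves after the apex has become reproductive.

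The plants were the winter cultivar Alana, sampled as leaf 3 and leaf 4 of the main tiller at growth stage 61, which is the start of flowering. Drought meant a soil water content of 25 ± 5%, elevated temperature a rise to at most 31 °C and elevated CO2 a concentration of 700 ppm, and the labels give no value for the settings of the control. The 8 groups were the untreated control, drought, elevated temperature, elevated CO2, temperature+drought, CO2+drought, CO2+temperature and CO2+temperature+drought. Each group had 3 libraries labelled as biological replicates, 24 in all, and the labels do not say how many plants went into each.

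Levels are FPKM, fragments corrected for the length of the transcript and the mapped total of the library, so levels of different genes can be set beside each other. The absolute depth is unknown; the value of 1 fragment, read from steps between low values, ranged from 0.883 to 1.15 of that in control replicate 1, which combines depth with any scaling. The 6 temperature+drought and CO2+drought columns stood apart in scale. Their values were written to a median of 9 decimals, against 14 in the other 18 columns. The labels do not say whether a separate run processed these 6 columns. Dividing each gene by its geometric mean over the libraries and taking the median of a library gave them factors of 0.872 to 0.892, against 1.05 to 1.06 in the other 18. The gap is 0.25 on the log2 scale, a fold of 1.19, and it cannot be told apart from those groups. Some comparisons with these groups are therefore also given rescaled, with each library divided by its factor. Comparisons of 1 of these groups with another group that are given only as deposited still hold the gap. Against control, the median log2 change of all genes tested was -0.19 in temperature+drought and -0.18 in CO2+drought as deposited, and 0.01 and 0 after rescaling. Of the 24 libraries, CO2+temperature+drought replicate 3 held the lowest value of its group for all 9 genes and for 43.2% of the genes tested. Control replicate 1, temperature replicate 3 and CO2+drought replicate 2 were also the lowest of their groups for all 3 VRN1 copies, and every comparison with control holds the first of these. In bulk leaf tissue, fewer cells of a type and less RNA per cell cannot be told apart. Leaf, floral and root markers were not checked, because 0 marker symbols could be tied to an identifier.

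All 9 genes lay above 1 FPKM in all 24 libraries, so all of them passed the filter on low values, at least 1 FPKM in at least 3 libraries, which kept 45359 genes. VRN1 had the highest level of the 3 triads, with VRN1-A between 109 and 286 FPKM, VRN1-B between 52.5 and 114 FPKM and VRN1-D between 35.4 and 95 FPKM. FUL3 was next, with its copies between 19.7 and 56.1 FPKM. FUL2 was lowest, with FUL2-B between 8.05 and 19.7 FPKM, FUL2-A between 4.47 and 10.9 FPKM and FUL2-D between 2.50 and 6.92 FPKM. Ranked among the genes with a nonzero value in the same library, VRN1-A never fell below the 98.8th percentile, while FUL2-D ranged from the 51.0th to the 73.6th.

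Under elevated CO2 the VRN1 and FUL3 copies were higher than in the control, under temperature+drought the VRN1 copies were, and under elevated temperature FUL2-A was. A gene was called where its adjusted p (limma, Benjamini-Hochberg over all genes tested) was below 0.05. Of the 9 genes, 0 were called under drought, where 1.91% of all genes tested were called, and 0 had an unadjusted p under 0.05. Under temperature 1 of 9 was called higher (16.6% of all genes called, 9.04% higher). Under CO2 6 of 9 were called higher (35.3%, 19.9% higher), and under CO2+temperature 5 of 9 (28.6%, 14.9% higher). Under temperature+drought 6 of 9 were called (53%), 4 higher and 2 lower, against 15.2% and 37.8% of all genes. After rescaling 4 of 9 were called there, all higher (45.5%, 24.9% higher). Under CO2+drought 4 of 9 were called higher (51.6%, 14.8% higher), and 6 of 9 after rescaling (43.3%, 23.5% higher). Under CO2+temperature+drought 2 of 9 were called lower (30%, 15.1% lower), and without its replicate 3 there were 5 calls, 4 of them higher. The median log2 change of the 9 was 0.64 under CO2, where that of all genes was 0.01. These comparisons share the 3 control libraries.

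**Figure D1:**
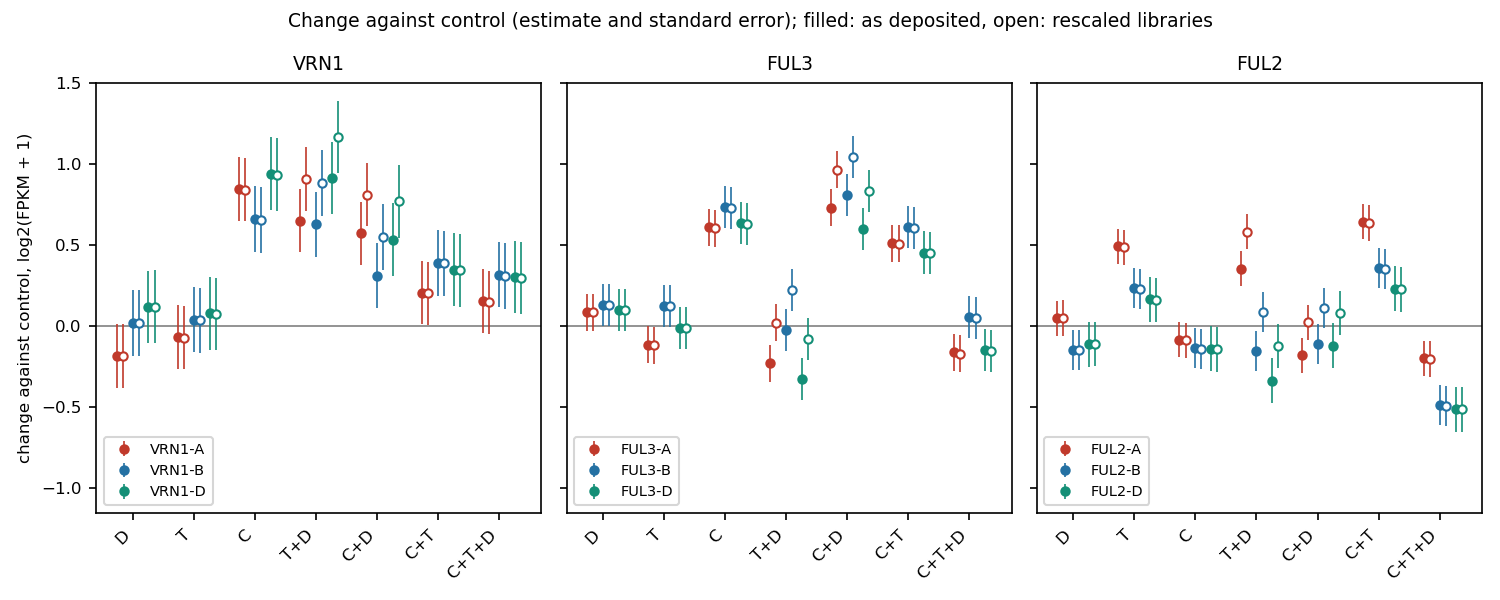
Change of each copy against control on the log2(FPKM + 1) scale for the 7 treated groups (D drought, T temperature, C elevated CO2), as an estimate with its standard error; filled points use values as deposited and open points rescaled libraries. VRN1 is higher under CO2 (0.66 to 0.94) and temperature+drought (0.63 to 0.91), FUL3 under CO2, CO2+drought and CO2+temperature (0.45 to 0.81), and FUL2-A under temperature and CO2+temperature (0.49 and 0.64).

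Elevated CO2 alone was the condition with the highest VRN1 as deposited. VRN1-A read 138, 160 and 158 FPKM in the control and 286, 265 and 270 FPKM under elevated CO2. The groups did not overlap. VRN1-A rose by 0.85 on the log2(FPKM + 1) scale (SE 0.20, a fold of 1.80, adjusted p = 0.0023). VRN1-B rose from 68.8 ± 9.58 to 108.7 ± 1.05 FPKM (SD, n = 3; log2 change 0.66, adjusted p = 0.015), and without control replicate 1 its adjusted p was 0.074. VRN1-D rose from 46.9 ± 3.16 to 90.9 ± 3.94 FPKM (SD, n = 3; log2 change 0.94, adjusted p = 0.0028).

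Drought and elevated temperature, each alone, gave no called change in VRN1, and their combination raised all 3 copies. VRN1-A read 131, 134 and 136 FPKM under drought, slightly below every control library. Under elevated temperature it read 173, 157 and 112 FPKM, a spread that covers the control. Under temperature+drought it read 249, 233 and 235 FPKM. These lay above every library of the control and of either treatment alone. The log2 change from control was 0.65 for VRN1-A (SE 0.20, adjusted p = 0.009), 0.63 for VRN1-B (adjusted p = 0.014) and 0.91 for VRN1-D (adjusted p = 0.0021), and rescaled it was 0.91, 0.88 and 1.17. The VRN1-B call was lost without control replicate 1. Set against drought alone, adding temperature raised the 3 copies by 0.84, 0.61 and 0.79, and set against temperature alone, adding drought raised them by 0.72, 0.59 and 0.83, all called, where 50.1% and 48.3% of all genes tested were called. Against temperature the VRN1-B call was lost without temperature replicate 3 or temperature+drought replicate 1, and in a fit to only those 6 libraries (adjusted p = 0.053). These comparisons share the temperature+drought libraries.

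The mean VRN1-A level of CO2+drought and of CO2+temperature stood between control and elevated CO2 alone. VRN1-A read 282, 182 and 225 FPKM under CO2+drought, all above the control. It rose by 0.57 (SE 0.20, adjusted p = 0.02), and leaving out control replicate 1 or CO2+drought replicate 1 ended the call. VRN1-B and VRN1-D changed by 0.31 and 0.53 (adjusted p = 0.2 and 0.053), VRN1-D was called with only the 6 libraries in the fit (adjusted p = 0.04), and after rescaling all 3 copies were called higher, by 0.81, 0.55 and 0.77. Under CO2+temperature VRN1-A read 176, 174 and 176 FPKM, which was above the control and below elevated CO2 alone. The 3 copies changed from control by 0.21, 0.39 and 0.35 (adjusted p = 0.47, 0.16 and 0.27), with 95% intervals of -0.20 to 0.62, -0.03 to 0.81 and -0.12 to 0.82. With the 6 control and CO2+temperature libraries alone in the fit, VRN1-B and VRN1-D were called higher (adjusted p = 0.019 and 0.0082). The step from CO2 to CO2+temperature was -0.64 for VRN1-A (adjusted p = 0.023; 23.4% of all genes called), -0.27 for VRN1-B and -0.59 for VRN1-D (adjusted p = 0.35 and 0.061). The VRN1-A call was lost when any of 5 of the 6 libraries was left out, the exception being CO2 replicate 2. These 2 groups held little spread of their own, while the SE of VRN1 pools all 8 groups. With only their 6 libraries in the fit, the adjusted p was 0.0044 for VRN1-B and 0.00025 for VRN1-D.

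CO2+temperature+drought was the most variable group for VRN1. VRN1-A read 226, 195 and 109 FPKM, VRN1-B 114, 98.5 and 55.6 FPKM, and VRN1-D 77.9, 70.5 and 35.4 FPKM. Replicates 1 and 2 lay above every control library and replicate 3 lay below every one, for all 3 copies. With all 3 libraries the changes from control were 0.15, 0.32 and 0.30, none called (adjusted p = 0.6, 0.26 and 0.33). Without replicate 3 all 3 copies were called higher, by 0.47, 0.62 and 0.65 (adjusted p = 0.026, 0.0071 and 0.0091).

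**Figure D2:**
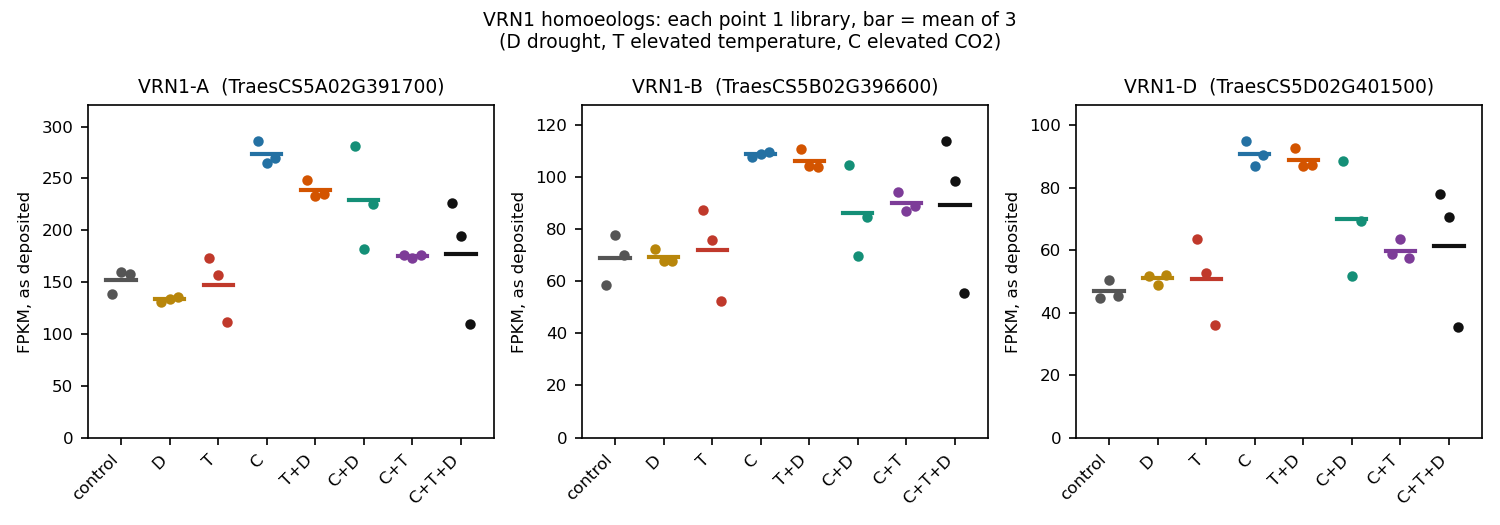
Levels of the 3 VRN1 copies in FPKM as deposited, in the 8 groups (D drought, T temperature, C elevated CO2); each point is 1 library and each bar the mean of 3. The mean of each copy is highest under elevated CO2 alone, temperature+drought stands above the control, and the third library of CO2+temperature+drought (VRN1-A 109 FPKM) falls below it.

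By the summed level of the triad, the order was drought (254 FPKM), control (268 FPKM), temperature (270 FPKM), CO2+temperature (325 FPKM), CO2+temperature+drought (327 FPKM), CO2+drought (386 FPKM), temperature+drought (434 FPKM) and CO2 (473 FPKM). In this order only the last pair of neighbours did not overlap. Rescaled, temperature+drought moved to the top with 494 FPKM, against 448 FPKM under CO2, again without overlap. The place of the highest group thus depends on the scaling of the columns.

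FUL3 was higher in the 3 CO2 groups that lacked the combination of heat and drought. FUL3-B read 24.2, 25.9 and 26.6 FPKM in the control and 44.1, 44.1 and 41.5 FPKM under elevated CO2. It read 47.3, 46.1 and 43.3 FPKM under CO2+drought and 44.7, 36.6 and 37.8 FPKM under CO2+temperature. Each of these 9 libraries lay above all control libraries, and they also lay above the drought libraries (29.9, 26.6 and 27.7 FPKM) and the temperature libraries (27.3, 28.7 and 27.9 FPKM). Against control FUL3-B rose by 0.73 with CO2 (SE 0.13, a fold of 1.66 in FPKM + 1, adjusted p = 0.0002), by 0.81 with CO2+drought (adjusted p = 4.7e-05) and by 0.61 with CO2+temperature (adjusted p = 0.0013).

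FUL3-A and FUL3-D took the same course. FUL3-A rose from 30.7 ± 1.61 FPKM in the control to 47.3 ± 0.685 with CO2, 51.5 ± 2.54 with CO2+drought and 44.3 ± 5.35 with CO2+temperature (SD, n = 3), log2 changes of 0.61, 0.73 and 0.51. FUL3-D rose from 34.5 ± 3.20 FPKM to 54.0 ± 2.57, 52.7 ± 1.66 and 47.7 ± 5.36 (SD, n = 3), log2 changes of 0.64, 0.60 and 0.45. The last of these had an adjusted p of 0.013 and was lost without control replicate 1, CO2+temperature replicate 1 or CO2+temperature replicate 3. The step from drought to CO2+drought was 0.64, 0.68 and 0.50 for the A, B and D copies, and the step from temperature to CO2+temperature was 0.63, 0.48 and 0.46, all called, where 49.1% and 13.7% of all genes tested were called. In the latter, the FUL3-B call was lost without CO2+temperature replicate 1, and the FUL3-D call without that library, CO2+temperature replicate 3 or temperature replicate 3.

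With heat and drought together, elevated CO2 gave no called rise in FUL3. FUL3-B read 27.0, 24.5 and 24 FPKM under temperature+drought and 35.0, 27.3 and 19.7 FPKM under CO2+temperature+drought. The 2 groups overlapped. The step between them was 0.07, 0.08 and 0.18 for the A, B and D copies, none called (46.2% of all genes), and -0.19, -0.18 and -0.08 after rescaling, so its sign depends on the scaling. Without CO2+temperature+drought replicate 3 it was 0.25, 0.29 and 0.36 as deposited, all called (adjusted p = 0.029, 0.026 and 0.016). From CO2+drought to CO2+temperature+drought all 3 copies fell, by 0.89, 0.75 and 0.75 on the log2 scale (adjusted p = 3.8e-06, 0.0001 and 0.00012; 51% of all genes called, 14.2% lower), and no copy lost its call without any 1 library. From CO2+temperature to CO2+temperature+drought they fell by 0.67, 0.55 and 0.60 (adjusted p = 0.00023, 0.0039 and 0.0022; 23% of all genes called, 12.2% lower), again with no call lost. In a fit to the 6 libraries of that comparison alone, the adjusted p-values were 0.051, 0.12 and 0.066.

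**Figure D3:**
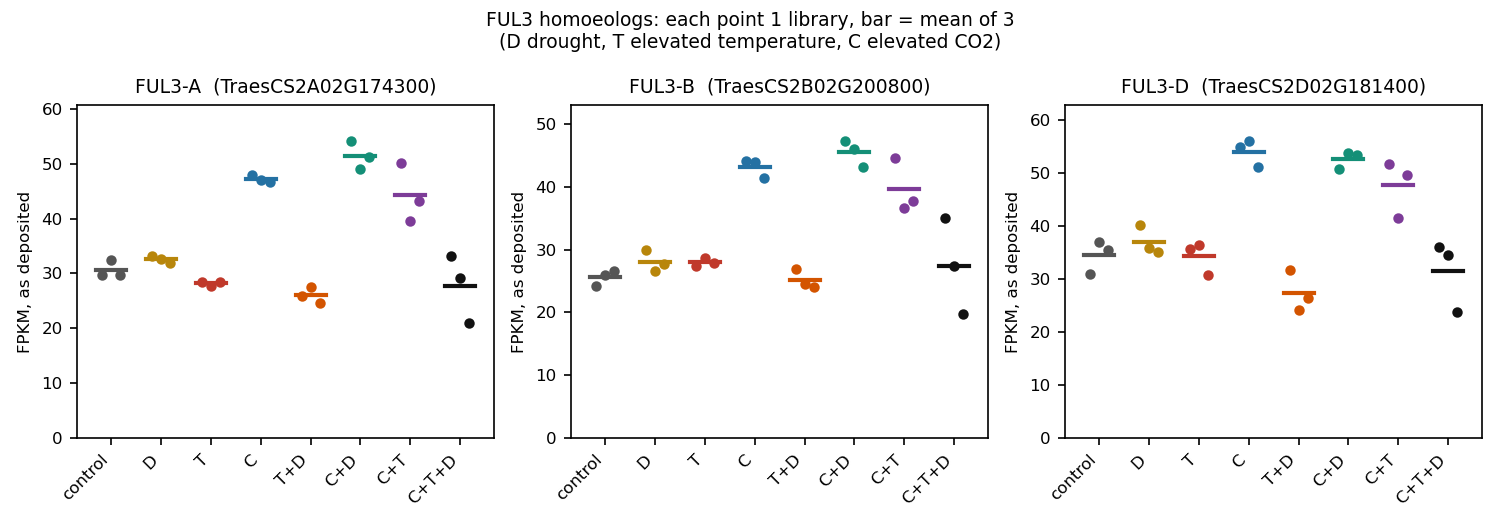
Levels of the 3 FUL3 copies in FPKM as deposited, in the 8 groups (D drought, T temperature, C elevated CO2); each point is 1 library and each bar the mean of 3. The CO2, CO2+drought and CO2+temperature libraries (FUL3-B 36.6 to 47.3 FPKM) stand above the control (24.2 to 26.6 FPKM), and CO2+temperature+drought (19.7 to 35.0 FPKM) spans it.

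Drought and temperature alone gave no called change in FUL3, with log2 changes between -0.12 and 0.13. Temperature+drought gave -0.23, -0.02 and -0.33 as deposited, of which FUL3-D was called (adjusted p = 0.042). After rescaling these were 0.02, 0.22 and -0.08, none called, and the FUL3-D call was also lost when any of 4 of the 6 libraries was left out. The order of the summed level was temperature+drought (78.6 FPKM), CO2+temperature+drought (86.5 FPKM), temperature (90.4 FPKM), control (90.7 FPKM), drought (97.6 FPKM), CO2+temperature (132 FPKM), CO2 (144.5 FPKM) and CO2+drought (150 FPKM). The gap between drought and CO2+temperature held no overlap, the 5 groups below it overlapped from neighbour to neighbour, and CO2+drought did not overlap CO2. Rescaled, CO2+temperature+drought was the lowest group (81.8 FPKM) and CO2+drought the highest (168 FPKM).

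The called rises of FUL2 against control lay in heated groups and were those of FUL2-A and, under CO2+temperature, FUL2-B. FUL2-A read 6.56, 5.61 and 6.16 FPKM in the control, 7.63, 8.68 and 10.9 FPKM under elevated temperature and 9.89, 10.2 and 10.2 FPKM under CO2+temperature. Neither heated group overlapped the control. FUL2-A rose by 0.49 with temperature (SE 0.11, a fold of 1.41, adjusted p = 0.0035) and by 0.64 with CO2+temperature (a fold of 1.56, adjusted p = 0.00015). These folds are of FPKM + 1, which at this level understates the change in FPKM. FUL2-B read 14.0, 13.9 and 14.7 FPKM in the control and 19.3, 18.1 and 18 FPKM under CO2+temperature, and rose by 0.36 (adjusted p = 0.036). That call was lost when any 1 of the 6 libraries was left out. FUL2-B under temperature alone and FUL2-D under either treatment changed by 0.23, 0.17 and 0.23, none called. From CO2 to CO2+temperature FUL2-A rose by 0.73 (adjusted p = 9.2e-05) and FUL2-B by 0.49 (adjusted p = 0.0069), while FUL2-D changed by 0.37 (adjusted p = 0.058).

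Drought, CO2 and CO2+drought gave no called change in FUL2 against control. FUL2-A read 6.63, 6.78 and 5.67 FPKM under drought, 5.42, 6.10 and 5.59 FPKM under CO2, and 5.50, 5.09 and 5.20 FPKM under CO2+drought. Under temperature+drought it read 7.07, 8.92 and 8.34 FPKM, all above the control. FUL2-A rose there by 0.36 (adjusted p = 0.01; 0.58 rescaled), a call lost without temperature+drought replicate 2. FUL2-D moved the other way in the same libraries, from 5.60 ± 0.644 to 4.22 ± 0.377 FPKM (SD, n = 3; log2 change -0.34, adjusted p = 0.047). After rescaling that change was -0.12 and not called, and it was lost when any of 4 of the 6 libraries was left out.

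The lowest FUL2 was in CO2+temperature+drought. FUL2-A read 5.67, 5.49 and 4.47 FPKM there, FUL2-B 12.9, 9.15 and 8.05 FPKM, and FUL2-D 4.92, 3.73 and 2.50 FPKM. Every one of these values lay below the CO2+temperature library with the lowest value of that gene. The share of all genes tested that separated in this way is not given here. In that comparison 23% of all genes tested were called, 12.2% lower. From CO2+temperature to CO2+temperature+drought the 3 copies fell by 0.84, 0.84 and 0.74 on the log2 scale (adjusted p = 1.5e-05, 5.4e-05 and 0.00056), and no call was lost without any 1 library. Against control FUL2-B fell by 0.49 (adjusted p = 0.005) and FUL2-D by 0.51 (adjusted p = 0.0078), while FUL2-A changed by -0.20 (adjusted p = 0.18). The FUL2-D call was lost without CO2+temperature+drought replicate 3, where its change was -0.31. In a fit to the 6 libraries compared, neither call held (adjusted p = 0.075 and 0.11).

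**Figure D4:**
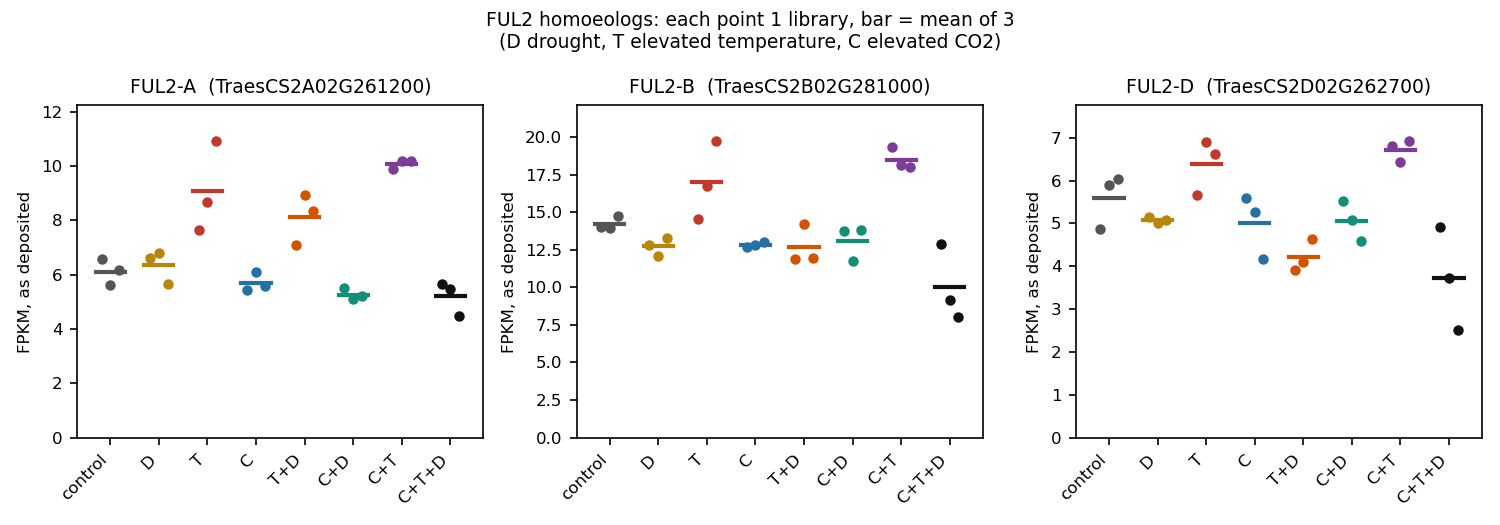
Levels of the 3 FUL2 copies in FPKM as deposited, in the 8 groups (D drought, T temperature, C elevated CO2); each point is 1 library and each bar the mean of 3. FUL2-A stands above the control in the temperature, CO2+temperature and temperature+drought groups (7.07 to 10.9 FPKM against 5.61 to 6.56 FPKM), and all 3 copies are lower in CO2+temperature+drought than in CO2+temperature.

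The summed FUL2 level was 35.3 FPKM under CO2+temperature, 32.5 FPKM under temperature and 25.9 FPKM in the control, with no overlap between the last 2. The other 5 groups had means from 19.0 FPKM (CO2+temperature+drought) to 25.0 FPKM (temperature+drought), and each neighbour in that order overlapped the next. Rescaled, CO2+drought (26.3 FPKM) and temperature+drought (28.5 FPKM) moved above the control (24.7 FPKM). There CO2+drought overlapped the control and temperature+drought did not, while temperature+drought and temperature overlapped.

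When a treatment was added to another, the number called among the 9 was 4 for CO2 added to drought (49.1% of all genes; 6 rescaled, 40.8%) and 3 for CO2 added to temperature (13.7%). It was 4, all lower, for CO2 added to temperature+drought (46.2%, 11.1% lower; 6 rescaled, all lower, 34.1%, 19.8% lower): VRN1-A at -0.50, VRN1-D at -0.61, FUL2-A at -0.55 and FUL2-B at -0.33. The VRN1-A and VRN1-D calls were lost when any of 4 of the 6 libraries was left out, which were the 3 temperature+drought libraries and CO2+temperature+drought replicate 3, and the FUL2-B call when any of 3 was. Without CO2+temperature+drought replicate 3 these 3 changes were -0.19, -0.26 and -0.20. In a fit to only the 6 libraries their adjusted p-values were 0.21, 0.17 and 0.22, while the FUL2-A call held there and without any 1 library. Temperature added to drought gave 6 calls (50.1%; 4 rescaled, 43.6%), temperature added to CO2 gave 3 (23.4%), and temperature added to CO2+drought gave 5, all lower (51%, 14.2% lower; 6 rescaled, 42.4%). Drought added to temperature gave 5 (48.3%; 3 rescaled, all VRN1, 36.8%), and drought added to CO2 gave 0 (38.1%), with 0 at an unadjusted p under 0.05 and 1, FUL3-A at 0.36, after rescaling (21.3%). Drought added to CO2+temperature gave 6, the 3 FUL2 and the 3 FUL3 copies, all lower (23%, 12.2% lower), while VRN1 changed by -0.05, -0.07 and -0.04 (95% intervals -0.46 to 0.36, -0.49 to 0.35 and -0.51 to 0.42).

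Averaged over the other treatments, the CO2 effect was 0.49 for FUL3-A, 0.49 for FUL3-B, 0.44 for FUL3-D, 0.34 for VRN1-A and -0.18 for FUL2-A (5 of 9 called, against 39.4% of all genes). These averages cover unlike backgrounds. Added to temperature+drought, CO2 gave no called rise in FUL3, and VRN1-A changed by -0.50, a call lost when any of 4 of the 6 libraries was left out. Averaged in the same way, temperature raised FUL2-A by 0.38, and its effect on the FUL3 copies was -0.35, -0.23 and -0.34 (4 of 9; 40.5%). The VRN1 copies had -0.07, 0.10 and 0.01 in that effect, and FUL2-B and FUL2-D 0.09 and -0.02, none called. Drought was negative for the FUL2 copies at -0.26, -0.34 and -0.33 and for FUL3-A and FUL3-D at -0.15 and -0.21 (5 of 9; 47.8%, 36.3% negative). After rescaling the FUL2 copies alone were called for drought, with changes of -0.15, -0.22 and -0.23 (3 of 9; 33.5%, 15.4% negative).

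The interaction terms give the difference of an effect between backgrounds, averaged over the remaining treatment. For drought by temperature 7 of 9 were called (20.2% of all genes, 9.95% negative), with VRN1-A positive at 0.56 and the 6 FUL2 and FUL3 copies negative, between -0.58 and -0.45. VRN1-B and VRN1-D had 0.42 and 0.54 (adjusted p = 0.15 and 0.096). The VRN1-A call was lost when any of 21 of the 24 libraries was left out, and without CO2+temperature+drought replicate 3 all 9 were called, VRN1-B at 0.58 and VRN1-D at 0.71. At ambient CO2 the VRN1 term was 0.90, 0.57 and 0.71 for A, B and D (1 of 9 called, 29.3%, 6.87% positive), and rescaled it was 1.16, 0.83 and 0.97 (3 of 9, 20.9%, 11.6% positive). At elevated CO2 it was 0.22, 0.28 and 0.36, none called. As deposited, the drought by temperature term had a median over all genes tested of -0.20 at ambient CO2 and 0.19 at elevated CO2. The FUL2 and FUL3 terms at elevated CO2 were between -0.87 and -0.57, all called (6 of 9, 28.6%, 6.57% negative). At ambient CO2 they were between -0.42 and -0.19, none called, a range that holds the median of all genes. The difference between the 2 CO2 levels is the 3-way term: it was called for FUL2-A (-0.56, adjusted p = 0.049) and FUL3-A (-0.60, adjusted p = 0.045) as deposited (2 of 9; 38.1%, 6.54% negative). Rescaled, it was called for VRN1-A, all FUL2 copies, FUL3-A and FUL3-B, all negative (6 of 9; 21.5%, 12.2% negative). It was not called for VRN1-B, VRN1-D or FUL3-D under either scaling, and the FUL2-A and FUL3-A calls as deposited were lost when any of 18 and 17 of the 24 libraries was left out.

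For temperature by CO2, 4 of 9 were called, all negative (53%, 15.3% negative): VRN1-A at -0.91, VRN1-D at -0.85, FUL3-A at -0.28 and FUL3-B at -0.43. The FUL3-A call was lost when any of 17 of the 24 libraries was left out. All genes had a median of 0.20 in this term as deposited. After rescaling the 3 VRN1 terms were -1.16, -0.70 and -1.09 and the 3 FUL3 terms -0.52, -0.67 and -0.49, all called (6 of 9; 44.4%, 24.1% negative). In the 4 groups without drought 0 of 9 were called by limma (17.4%) and 1 had an unadjusted p under 0.05. The median term there was -0.57 for the VRN1 copies, 0.24 for the FUL2 copies and -0.17 for the FUL3 copies. In the 4 groups with drought 4 of 9 were called (59.6%, 12.9% negative; 9 of 9 rescaled, all negative, 45.4%, 24% negative), with VRN1-A at -1.25, VRN1-D at -1.02, FUL3-A at -0.58 and FUL3-B at -0.60. For drought by CO2, VRN1-D (-0.70, adjusted p = 0.042) and FUL2-A (-0.43, adjusted p = 0.012) were called (2 of 9; 13.9%, 9.11% negative). The other 7 copies had -0.51 to -0.05, none called, and the VRN1-D call was lost when any of 18 of the 24 libraries was left out.

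The share of each copy in its triad does not depend on how a library was scaled. The labels do not say how fragments that match more than 1 near-identical copy were counted, which leaves the levels and shares of single copies uncertain. VRN1-A held the largest VRN1 share in every library, from 51.2% to 60.05%. Its mean was lowest under drought (52.6% ± 1.17, SD, n = 3) and highest under CO2+drought (59.6% ± 0.402), and neither group overlapped its neighbour in the order of shares. VRN1-B was at 22.4% ± 0.449 under CO2+drought and 23.0% ± 0.859 under CO2, both without overlap with the next group, temperature+drought at 24.5% ± 0.0682 (SD, n = 3). FUL2-B held the largest share of FUL2 in every library, 48.0% to 58.5%. The FUL2-A share was 24.1% to 33.4% in the 12 heated libraries (median 29.3%) and 22.0% to 28.4% in the 12 others (median 23.4%), ranges that overlap. Temperature+drought had the highest FUL2-A share, 32.4% ± 1.30 (SD, n = 3), without overlap with CO2+temperature at 28.6% ± 1.0. CO2+drought and temperature+drought are the groups whose columns stood apart in scale. For their shares, the treatment cannot be told apart from any difference in processing other than scaling. The FUL3 copies were closer to equal, with group means of 31.2% to 34.4% for A, 28.2% to 32.0% for B and 34.8% to 38.0% for D.

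Ratios between triads within a library are also free of the scaling, but not of any other difference in how the columns were processed. VRN1 summed to 2.85, 3.02 and 2.97 times FUL3 in the control libraries 1 to 3 and to 2.47, 2.63 and 2.70 times FUL3 under drought. It summed to 5.36, 5.56 and 5.68 times FUL3 under temperature+drought. The libraries of the other 7 groups reached at most 4.01, so temperature+drought overlapped none of them. The mean ratio was 3.28 ± 0.128 under CO2, where both triads were higher, and 2.49 ± 0.254 under CO2+temperature (SD, n = 3). VRN1 over FUL2 was 10.3 ± 0.913 in the control, 20.1 ± 0.917 under CO2, 17.5 ± 2.13 under temperature+drought, 16.4 ± 2.69 under CO2+drought and 17.0 ± 3.31 under CO2+temperature+drought (SD, n = 3). It was 9.21 ± 0.108 under CO2+temperature, 8.61 ± 3.13 under temperature and 10.5 ± 0.142 under drought. The libraries of the 4 groups with the higher means lay between 13.3 and 20.7, and those of the 4 groups with the lower means between 5.38 and 11.6. FUL3 over FUL2 was 3.5 ± 0.220 in the control and highest under CO2 (6.14 ± 0.0627) and CO2+drought (6.40 ± 0.341), with the other treated groups between 2.83 and 4.56 (SD, n = 3).

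**Figure D5:**
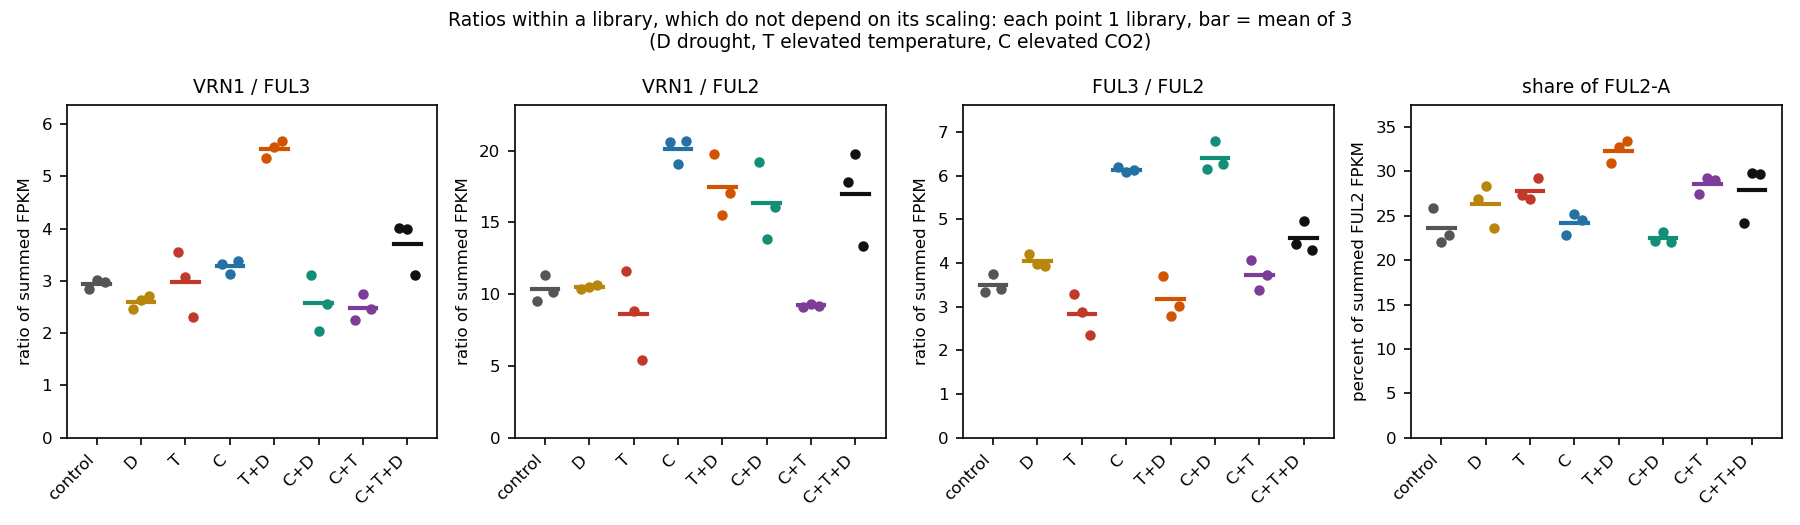
Ratios of the summed FPKM of VRN1 to FUL3, VRN1 to FUL2 and FUL3 to FUL2, and the share of FUL2-A in its triad in percent, in the 8 groups (D drought, T temperature, C elevated CO2); each point is 1 library and each bar the mean of 3. VRN1 over FUL3 stands apart under temperature+drought (5.36 to 5.68), and FUL3 over FUL2 is highest under CO2 and CO2+drought (6.08 to 6.79).

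The genes most like each triad were sought among tested genes whose 8 group means ranged at least 50% as widely, after rescaling and centring of log2(FPKM + 1), by the mean absolute difference over the 8 groups. For VRN1 these were TraesCS1A02G046600 and TraesCS2B02G107200, which differed by 0.06 each on the log2 scale among 29806 genes compared. TraesCS1A02G046600 had 22.9 FPKM in the control, 34.0 under CO2 and 34.2 under temperature+drought. For FUL2 they were TraesCS3B02G361900 (0.07) and TraesCS4D02G182600 (0.08) among 33782 genes, and for FUL3 TraesCS5B02G136400 (0.08) and TraesCS4D02G209300 (0.08) among 29069. The copies of a triad differed from its sum by 0.05 to 0.10 for VRN1, 0.04 to 0.11 for FUL2 and 0.03 to 0.05 for FUL3, and VRN1-B, FUL2-A and FUL2-D were farther from their sums than the genes named for those triads. Copies of the other triads were farther off, between 0.24 and 0.46.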

How the data were processed

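Poly-A leaf RNA was sequenced as paired ends in 24 libraries. The deposited values are FPKM per gene, made by the authors. The tools named without a role, per the submitters' processing notes, are HISAT2, Cuffdiff, DESeq2 and Trim Galore 0.4.1. Genome build, annotation and any scaling of libraries were not given in the sources used here. All 24 value columns were mapped to samples by name, and 0 were left over. Because depth is unknown, no counting interval was computed.

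From these values log2(FPKM + 1) was computed, which understates the change of low genes. The 45359 genes that reached 1 FPKM in 3 or more libraries entered limma 3.58.1 (R 4.3.3), which had 1 coefficient per group, a trend of variance on mean, and was tested on simulated data first. Two-sided p-values were adjusted over all genes of a contrast (Benjamini-Hochberg), and those below 0.05 after adjustment were called. There were 16 pairs of groups, 3 main effects and 4 interactions, and 4 interactions within 1 level of CO2 or drought were added after the data were seen. P-values measure the spread between these libraries. The 9 genes and the lists were chosen with earlier results of these data known. The rule for named genes took all 9, some of which are given in a comparison by range or count, and the 2 most alike other genes per triad. Other flowering genes were to be named where the reference (IWGSC CS RefSeq v2.1) tied a symbol to an identifier: of 105200 identifiers, 0 matched. Alternatives were a pseudocount of 0.1, no filter, rescaled libraries, library quality weights, a replicate block, a fit to only the libraries compared, each library left out and, added after the data were seen, a fit to the 18 libraries with the higher factors.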

Additional observations from a re-analysis of the deposited data

Results flagged for a closer look

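The following values are interaction terms that passed the test, each a difference on the log2 scale between the effects of a treatment in 2 backgrounds; the value after rescaling follows in parentheses. A group of 3 libraries is too small for a test of single outlying libraries.

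For drought by temperature, averaged over CO2, VRN1-A had 0.56 (0.57), against 20.2% of all genes called. The FUL2 copies had -0.47 (-0.45) for A, -0.55 (-0.55) for B and -0.58 (-0.57) for D. The FUL3 copies had -0.50 (-0.49) for A, -0.45 (-0.45) for B and -0.49 (-0.49) for D. The VRN1-A call (adjusted p = 0.048) was lost when any of 21 of the 24 libraries was left out, and VRN1-B and VRN1-D were not called (adjusted p = 0.15 and 0.096). At ambient CO2 the VRN1-A term was 0.90 (1.16), lost without temperature replicate 3, where it was 0.72. At elevated CO2 the FUL2 terms were -0.75 (-0.95) for A, -0.87 (-1.10) for B and -0.76 (-0.97) for D. The FUL3 terms there were -0.79 (-1.04) for A, -0.63 (-0.87) for B and -0.57 (-0.81) for D, and the FUL3-D call was lost when any of 6 of the 12 libraries was left out.

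For drought by CO2, VRN1-D had -0.70 (-0.71) and FUL2-A -0.43 (-0.44). For temperature by CO2, averaged over drought, VRN1-A had -0.91 (-1.16), VRN1-D -0.85 (-1.09), FUL3-A -0.28 (-0.52) and FUL3-B -0.43 (-0.67). Under drought these were -1.25 (-1.76) for VRN1-A, -1.02 (-1.52) for VRN1-D, -0.58 (-1.07) for FUL3-A and -0.60 (-1.09) for FUL3-B, and none of the 4 calls was lost when 1 of the 12 libraries was left out. For the term of all 3 treatments, FUL2-A had -0.56 (-1.0) and FUL3-A -0.60 (-1.09).

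The drought by temperature terms averaged over CO2 and the drought by CO2 terms changed least on rescaling of the terms given here. In both, temperature+drought and CO2+drought enter with opposite signs, so a gap shared by their columns cancels by construction. The small change on rescaling does not make these results firmer than the others.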

How the results depend on the processing

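Counts below are members called of 9. In the fit as reported they are those given above, and with rescaled libraries they were 1 for drought added to CO2, 3 for drought added to temperature, 3 for the drought main effect, 9 for temperature by CO2 under drought, 3 for drought by temperature at ambient CO2 and 6 for the term of all 3 treatments. Over the 27 comparisons of the 9 copies, 214 values kept their direction and side of the threshold on rescaling, 21 gained a call and 8 lost it. With no filter on low values the counts were 2 for CO2 added to temperature+drought, 1 for drought by CO2 and 0 for the term of all 3 treatments, and 10 of the single values lost a call; more genes entered the adjustment.

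With only the 6 libraries compared in the fit, CO2+temperature against control gave 7, temperature added to CO2 6, temperature added to CO2+drought 3, drought added to CO2+temperature 3, CO2+temperature+drought against control 0, CO2 added to temperature+drought 1 and drought added to temperature 3. Library quality weights ranged from 0.0795 to 211 and their routine stopped before converging. With them the counts were 2 for temperature, 8 for CO2+drought and 5 for CO2+temperature+drought against control. They were 8 for CO2 added to drought, 5 for CO2 added to temperature, 9 for CO2 added to temperature+drought, 6 for temperature added to CO2, 8 for temperature added to CO2+drought, 8 for drought added to temperature and 4 for drought added to CO2. They were 8 for the CO2 main effect, 6 for drought by CO2, 5 for the term of all 3 treatments, 6 for temperature by CO2 without drought, 8 under drought and 8 for drought by temperature at ambient CO2. With these weights 2 values changed sign: FUL2-A (TraesCS2A02G261200) in temperature added to CO2+drought, to 0.063, and VRN1-D (TraesCS5D02G401500) in drought added to CO2+temperature, to 0.26. The cause was not tested. A pseudocount of 0.1 moved 2 single calls, and the fit to the 18 libraries moved 0 of 81. That fit covers only comparisons without temperature+drought and CO2+drought. Their estimates could not change in it, only their spread, so it does not bear on the gap in scale.

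The replicate numbers did not pair the samples: deviations from the group means of same-numbered libraries of different groups correlated with a median r of 0.01 (84 pairs across genes, lowest -0.29, 12 over 0.1). A replicate block changed the count for the term of all 3 treatments from 2 to 1, and among single values it gained 5 calls and lost 2.

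Leaving out 1 library at a time changed the sign of 0 called values. The counts against control ranged from 0 to 0 for drought, 1 to 1 for temperature, 5 to 6 for CO2, 3 to 5 for temperature+drought (3 without its replicate 2) and 3 to 5 for CO2+drought. They ranged from 3 to 4 for CO2+temperature (3 without control replicate 1 or CO2+temperature replicate 1 or 3) and from 2 to 5 for CO2+temperature+drought (5 without its replicate 3). CO2 added to temperature ranged from 1 to 3 (1 without CO2+temperature replicate 1), and CO2 added to temperature+drought from 1 to 5 (1 without temperature+drought replicate 2, 2 without its replicate 1 or 3). Temperature added to CO2+drought ranged from 3 to 6 (3 without CO2+drought replicate 1 or CO2+temperature+drought replicate 3). CO2 or temperature added to drought gave 4 to 5 and 4 to 6, temperature added to CO2 2 to 3, drought added to temperature 4 to 5, to CO2 0 to 0 and to CO2+temperature 6 to 6. The main effects gave 4 to 6 for drought, 4 to 4 for temperature and 5 to 7 for CO2. Drought by temperature gave 6 to 9, drought by CO2 1 to 5 and the term of all 3 treatments 0 to 4, the last 2 being highest without CO2+temperature+drought replicate 1. Temperature by CO2 gave 3 to 5, 4 to 6 under drought and 0 to 0 without drought. Drought by temperature gave 0 to 2 at ambient CO2 (0 without temperature replicate 3, 2 without temperature replicate 1 or temperature+drought replicate 1) and 5 to 6 at elevated CO2.

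Depth is unknown, so no value has a counting error. With 3 libraries a group and 1 pooled spread per gene, VRN1 changes have an SE near 0.20 on the log2 scale, larger than those of FUL2 and FUL3.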
